A study of Mus musculus with 14 samples.

Results

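The 10 genes described here encode the proteins that cover, break down and build the lipid droplet of the mouse hepatic stellate cell (HSC). They are the coat proteins Plin2, Plin3, Plin4 and Plin5, the lipases Pnpla2, Lipe, Mgll and Lpl, and the acyltransferases Dgat1 and Dgat2. A gene was taken where a probe set of the array named it and no other gene, and each of the 10 had exactly 1 such probe set, out of 19938 genes measured in the series. Primary HSCs of BalbC mice (Balb/cByJ in the methods) were purified on a density gradient and seeded in serum-containing medium, unattached cells were washed away, and the histone deacetylase inhibitor valproic acid (VPA, 2.5 mM) was added or not from that moment on. There were 5 groups. VPA4h and VPA64h cells (3 arrays each) were kept with VPA for 4 or 64 h, and Ctrl4h, Ctrl16h and Ctrl64h cells were kept without it for 4, 16 or 64 h (3, 2 and 3 arrays), so that VPA has no 16 h sample. The study describes the samples of a group as separate HSC isolations. All groups were plated cells in culture, none was a freshly isolated cell, and the sources used here do not give the mice behind each array.

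A lipid droplet is a core of triglycerides and steryl esters under a single layer of phospholipid. Perilipins (Plin proteins) sit on this surface and limit the access of lipases. Triglyceride is broken down stepwise, by adipose triglyceride lipase (Pnpla2), hormone-sensitive lipase (Lipe) and monoacylglycerol lipase (Mgll), and its last step of synthesis is carried out by Dgat1 or Dgat2. In the quiescent HSC the droplets also hold retinyl esters, the vitamin A store of the liver, and the droplets are lost as the cell turns into a myofibroblast. Plating on plastic starts this activation, and the comparisons between times and between VPA and control cells ask how the genes move with it.

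Expression is given as log2 values made by RMA, which gives all arrays the same distribution of intensities, so that each change is relative to the other genes. A difference of 1 is a 2-fold change. Differences were tested with limma in 1 fit of all groups, with p-values adjusted by Benjamini-Hochberg over 23410 probe sets. Below, a gene rose or fell where its adjusted p was under 0.05, and it was called where the change was also at least 2-fold. No array stood apart, and the lowest correlation between 2 arrays of a group was 0.993. Stellate cell markers averaged 8.58 to 9.53 per array over 13 genes, and were lower later in culture. Their mean was 9.27 to 9.33 in Ctrl4h arrays, 8.61 to 8.71 in Ctrl16h arrays and 8.58 to 8.71 in Ctrl64h arrays. With VPA it was 9.39 to 9.53 at 4 h and 8.61 to 8.71 at 64 h. For Ctrl64h against Ctrl4h 3 of these markers rose and 8 fell (25% and 31.6% of all probe sets). Hepatocyte markers averaged 5.17 to 6.16 over 12 genes, and Kupffer cell and macrophage markers 5.52 to 6.01 over 12 genes. Replicate 2 had the highest hepatocyte mean, and replicate 1 the highest macrophage mean, in 4 of 4 groups with 3 arrays. In bulk RNA, fewer cells of a type and less RNA per cell cannot be told apart.

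The promoter windows of the genes with the largest changes are shown because Plin2 and Mgll moved over the widest ranges of group means, Plin3 rose with Plin2 in culture, and Pnpla2 had the largest difference after 4 h of VPA. RefSeq windows of GRCm38.p6, from 250 bases before to 50 bases after a transcript start, were available for 7 of the 10 genes (10 windows). They are written 5′ to 3′ along the strand of the gene. Capitals mark AGGTCA (the repeat unit of many nuclear receptor elements), CACGTG (an E-box), CCAAT and GGGCGG (a GC box), read on either strand. The Plin2 window is chr4:86670010-86670309 (minus strand), the Plin3 window chr17:56290462-56290761 (minus strand), the first Mgll window chr6:88724162-88724461 (plus strand), and the Pnpla2 window chr7:141454938-141455237 (plus strand).
Plin2: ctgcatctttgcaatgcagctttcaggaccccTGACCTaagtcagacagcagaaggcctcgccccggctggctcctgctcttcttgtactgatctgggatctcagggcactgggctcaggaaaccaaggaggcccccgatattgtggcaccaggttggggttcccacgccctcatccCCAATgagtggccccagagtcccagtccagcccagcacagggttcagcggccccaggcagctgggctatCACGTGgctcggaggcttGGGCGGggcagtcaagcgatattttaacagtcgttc
Plin3: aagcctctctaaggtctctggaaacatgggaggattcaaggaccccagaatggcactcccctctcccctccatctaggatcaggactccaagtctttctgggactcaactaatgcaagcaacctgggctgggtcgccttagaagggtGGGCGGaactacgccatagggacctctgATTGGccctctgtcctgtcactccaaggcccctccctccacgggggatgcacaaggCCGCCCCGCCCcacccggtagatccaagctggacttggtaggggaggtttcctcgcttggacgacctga
Mgll: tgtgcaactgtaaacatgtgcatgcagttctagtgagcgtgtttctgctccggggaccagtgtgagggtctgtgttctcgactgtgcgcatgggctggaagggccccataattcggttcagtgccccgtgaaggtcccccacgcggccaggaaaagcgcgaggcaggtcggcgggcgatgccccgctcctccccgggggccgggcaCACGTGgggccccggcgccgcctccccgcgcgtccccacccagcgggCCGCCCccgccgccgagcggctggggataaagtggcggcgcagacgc
Pnpla2: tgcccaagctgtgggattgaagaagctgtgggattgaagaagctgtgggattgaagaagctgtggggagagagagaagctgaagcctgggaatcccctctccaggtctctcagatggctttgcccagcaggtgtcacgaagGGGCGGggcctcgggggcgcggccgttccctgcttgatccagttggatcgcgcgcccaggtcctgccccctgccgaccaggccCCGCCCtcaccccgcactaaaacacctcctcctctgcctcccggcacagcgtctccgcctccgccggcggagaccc
The E-box CACGTG stood at position -4 of Plin2 and at -44 of Mgll, counted from the start site. It was in 3 of the 10 windows, and 7.15% of all 32851 windows hold it. AGGTCA was at -218 of Plin2, in 3 of 10 windows against 16.3% of all windows. A pair of AGGTCA copies with 1 base between them (the DR1 element) and the cyclic AMP element TGACGTCA were in none of the 10 windows, against 0.0396% and 1.79% of all windows. GGGCGG was in 8 of 10 windows against 35.7%, and CCAAT in 4 of 10 against 37.4%. The 10 windows come from 7 genes and some of them overlap, so these shares are a description.

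In control culture most of the 10 genes moved, and in both directions. For Ctrl64h against Ctrl4h, Plin2, Plin3 and Mgll rose at least 2-fold and none fell that far, where 6.68% of all tested probe sets rose and 3.71% fell by this rule. At any size of change 6 genes rose and 3 fell, against 25% and 31.6% of all probe sets, and Plin4 did not pass. The median change of the 10 genes was 0.26, against -0.09 over all probe sets. For Ctrl16h against Ctrl4h 1 gene (Mgll) was called higher and none lower, where 0.705% of probe sets were called higher and 1.21% lower, and for Ctrl64h against Ctrl16h 2 genes (Plin2 and Lpl) were called higher and none lower, where 4.52% and 2.08% of probe sets were. At any size, 3 rose and 2 fell over the early step (12.8% and 7.32% of all probe sets), and 4 rose and 2 fell over the late step (19.2% and 23.9%).

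**Figure D1:**
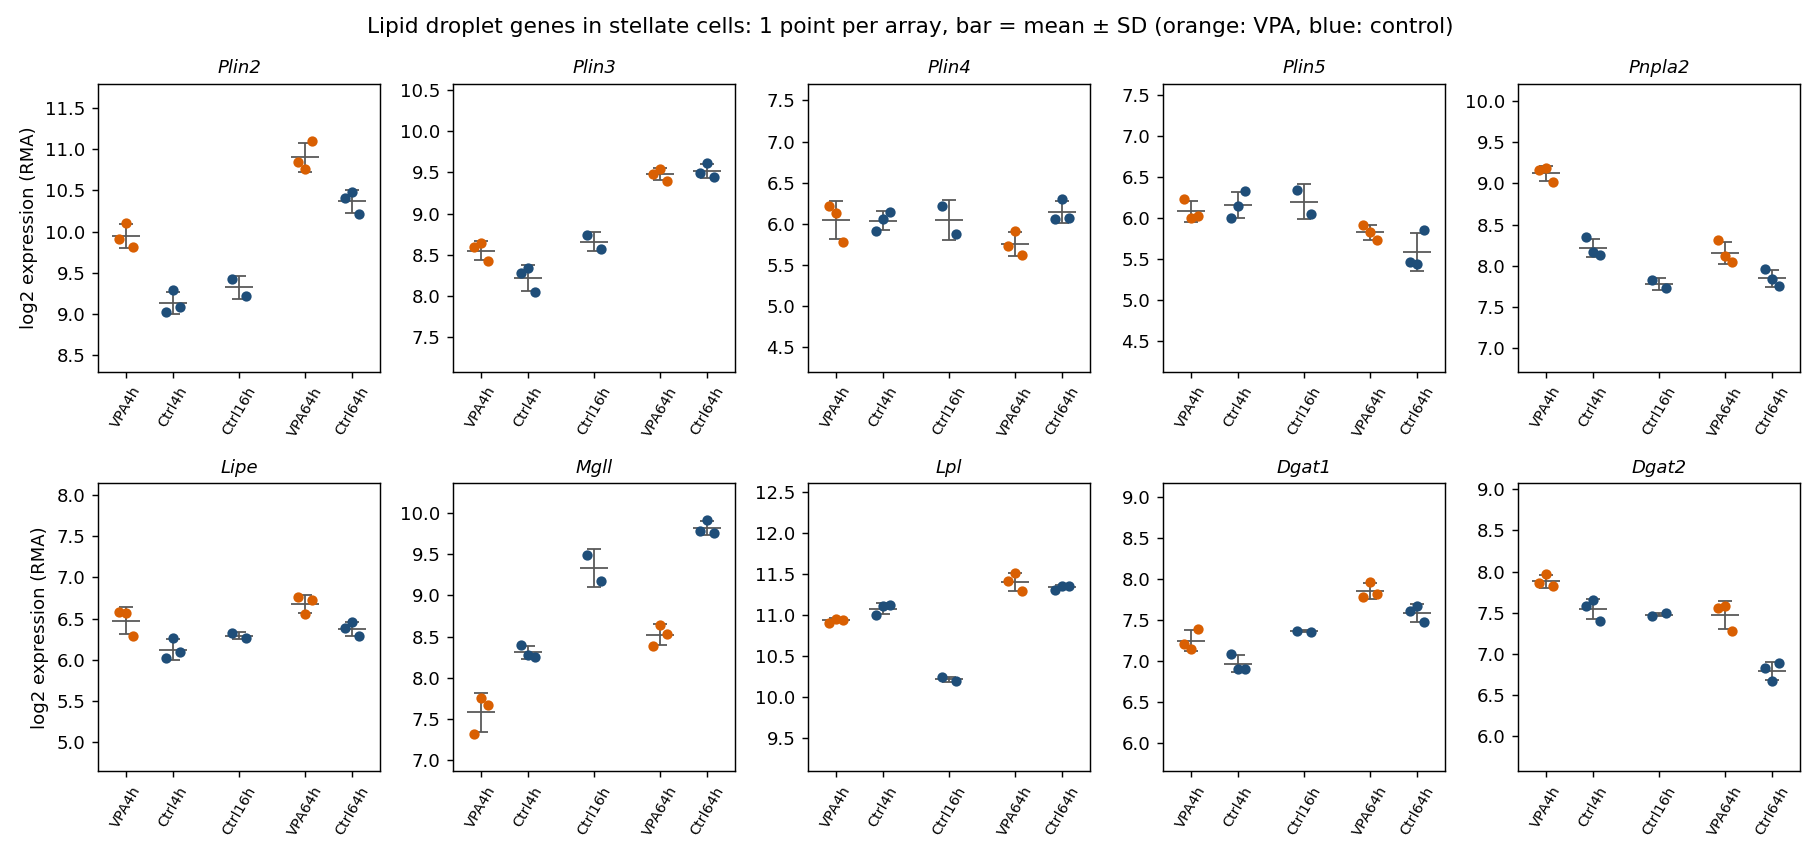
Log2 expression of the 10 genes on the y axis, 1 point per array, with the mean and SD of each group (orange VPA, blue control). Each panel spans the same height on the log2 scale. Mgll was below its control with VPA at both times (means 7.58 against 8.31, and 8.52 against 9.82), and Lpl was lowest in Ctrl16h (mean 10.22).

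Plin2, the perilipin that coats droplets in most cells outside fat tissue, read 9.03, 9.29 and 9.09 in Ctrl4h, 9.42 and 9.22 in Ctrl16h, and 10.41, 10.48 and 10.21 in Ctrl64h. The 64 h arrays lay above all earlier ones, while the 16 h and 4 h arrays overlapped. The change was 1.23 (SE 0.11, adjusted p = 1.89e-07) for Ctrl64h against Ctrl4h, and 1.05 (SE 0.13, adjusted p = 8.95e-06) for Ctrl64h against Ctrl16h. The late step was 0.95 without Ctrl16h replicate 2 and 0.99 without Ctrl64h replicate 2, which is just under 2-fold.

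Plin3 (TIP47), a perilipin that is also found free in the cytosol and moves onto nascent droplets, read 8.27, 8.34 and 8.04 in Ctrl4h, 8.74 and 8.57 in Ctrl16h, and 9.50, 9.62 and 9.45 in Ctrl64h. The 3 times did not overlap. Plin3 rose by 0.44 (SE 0.11, adjusted p = 0.00827) over the early step and by 0.86 (SE 0.11, adjusted p = 1.1e-05) over the late step, 1.30 in all (SE 0.10, adjusted p = 1.59e-08). The early step had an adjusted p of 0.127 without Ctrl16h replicate 1 and of 0.0573 with arrays centred on housekeeping genes.

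Plin4 and Plin5, which coat droplets of fat cells and of oxidative tissues, lie close together on chromosome 17 (chr17:56100587-56109948 and chr17:56111597-56117606 in GRCm38.p6), on the same chromosome as Plin3. Both were below the array's median probe set on 14 of 14 arrays, and the file has no detection call. Plin4 ranged from 5.87 to 6.30 over all control arrays, with group means of 6.04, 6.04 and 6.15 at 4, 16 and 64 h, and passed no control comparison (adjusted p = 0.497 for Ctrl64h against Ctrl4h). Plin5 read 6.0, 6.14 and 6.33 in Ctrl4h, 6.34 and 6.04 in Ctrl16h, and 5.47, 5.44 and 5.86 in Ctrl64h. It fell by 0.57 (SE 0.12, adjusted p = 0.0011) between 4 and 64 h, and the 64 h arrays lay below all earlier control arrays. Its late step of -0.60 (adjusted p = 0.00229) had an adjusted p of 0.0544 without Ctrl16h replicate 1.

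Among the lipases, Mgll had the largest change. Mgll cleaves monoacylglycerols, the endocannabinoid 2-arachidonoylglycerol included. It read 8.40, 8.28 and 8.25 in Ctrl4h, 9.49 and 9.17 in Ctrl16h, and 9.78, 9.91 and 9.76 in Ctrl64h, with no overlap between times. Mgll rose 2.84-fold between 4 and 64 h (log2 1.51, SE 0.12, adjusted p = 2.92e-08). The early step of 1.02 (SE 0.13, adjusted p = 4.57e-05) was 0.86 without Ctrl16h replicate 1, 0.99 without Ctrl4h replicate 3 and 0.89 with arrays centred on housekeeping genes. The late step of 0.49 (SE 0.13, adjusted p = 0.00746) was 0.33 without Ctrl16h replicate 2 (adjusted p = 0.136).

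Pnpla2, which takes the first fatty acid off a triglyceride, went the other way. It read 8.34, 8.17 and 8.13 in Ctrl4h, 7.83 and 7.73 in Ctrl16h, and 7.96, 7.83 and 7.76 in Ctrl64h, so that the 4 h arrays lay above all later control arrays. The fall of 0.44 (SE 0.11, adjusted p = 0.00739) came over the early step (adjusted p = 0.0806 without Ctrl16h replicate 2), and the late step was 0.07 (95% interval -0.16 to 0.30). Lipe, which acts mainly on diacylglycerol, stayed between 6.01 and 6.46 on all control arrays. Over all groups Lipe was below the array's median probe set on 7 of 14 arrays. Its rise of 0.25 for Ctrl64h against Ctrl4h (SE 0.10, adjusted p = 0.0415) did not pass when Ctrl4h replicate 1 or 3, or Ctrl64h replicate 1 or 2, was left out (adjusted p = 0.0826 to 0.14).

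Lpl, the secreted lipase that frees fatty acids from lipoproteins for uptake, dipped. It read 11.00, 11.11 and 11.12 in Ctrl4h, 10.24 and 10.19 in Ctrl16h, and 11.31, 11.35 and 11.36 in Ctrl64h. The 16 h arrays were the lowest of all 14. Lpl fell by 0.86 over the early step (SE 0.09, adjusted p = 4.58e-06) and rose by 1.12 over the late step (SE 0.09, adjusted p = 8.11e-08), ending 0.26 above its start (SE 0.08, adjusted p = 0.00924). Both steps rest on 2 arrays at 16 h, and stayed between -0.90 and -0.83 and between 1.10 and 1.14 when any array of either group was left out. Macrophages also make Lpl, and their marker Lyz2 averaged 8.11, 7.24 and 9.03 at 4, 16 and 64 h (1.79 for Ctrl64h against Ctrl16h, SE 0.54, adjusted p = 0.0143). Of the 12 macrophage markers 4 rose and 2 fell over the late step (19.2% and 23.9% of all probe sets), and 1 fell over the early step (7.32%). For Ctrl64h against Ctrl4h 5 of the 12 fell and none rose (31.6% and 25% of all probe sets). The mean of the 12 markers was 5.70 to 6.01 in Ctrl4h arrays, 5.55 to 5.56 in Ctrl16h arrays and 5.66 to 5.93 in Ctrl64h arrays. Within Ctrl64h the SD over 3 arrays was 0.66 for Lyz2 and 0.03 for Lpl, which does not show how much macrophages add to Lpl. The part of macrophages in the Lpl values was not tested.

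The 2 enzymes that close triglyceride synthesis changed in opposite directions in control culture. Dgat1, an enzyme of the endoplasmic reticulum that also esterifies retinol, read 7.09, 6.91 and 6.91 in Ctrl4h, 7.37 and 7.36 in Ctrl16h, and 7.61, 7.67 and 7.47 in Ctrl64h. It rose by 0.62 between 4 and 64 h (SE 0.09, adjusted p = 3.24e-05), with no overlap between times. Dgat2, which also works at the droplet surface, read 7.58, 7.65 and 7.40 in Ctrl4h, 7.46 and 7.49 in Ctrl16h, and 6.83, 6.67 and 6.88 in Ctrl64h. It fell by 0.75 (SE 0.10, adjusted p = 9.15e-06), with a late step of -0.69 (SE 0.11, adjusted p = 0.00013) and an early step of -0.07 (adjusted p = 0.758). Dgat1 passed the early step (0.40, adjusted p = 0.0109) but not without either of the Ctrl16h arrays (adjusted p = 0.0815 and 0.0622). Its late step of 0.22 did not pass (SE 0.10, adjusted p = 0.0975).

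**Figure D2:**
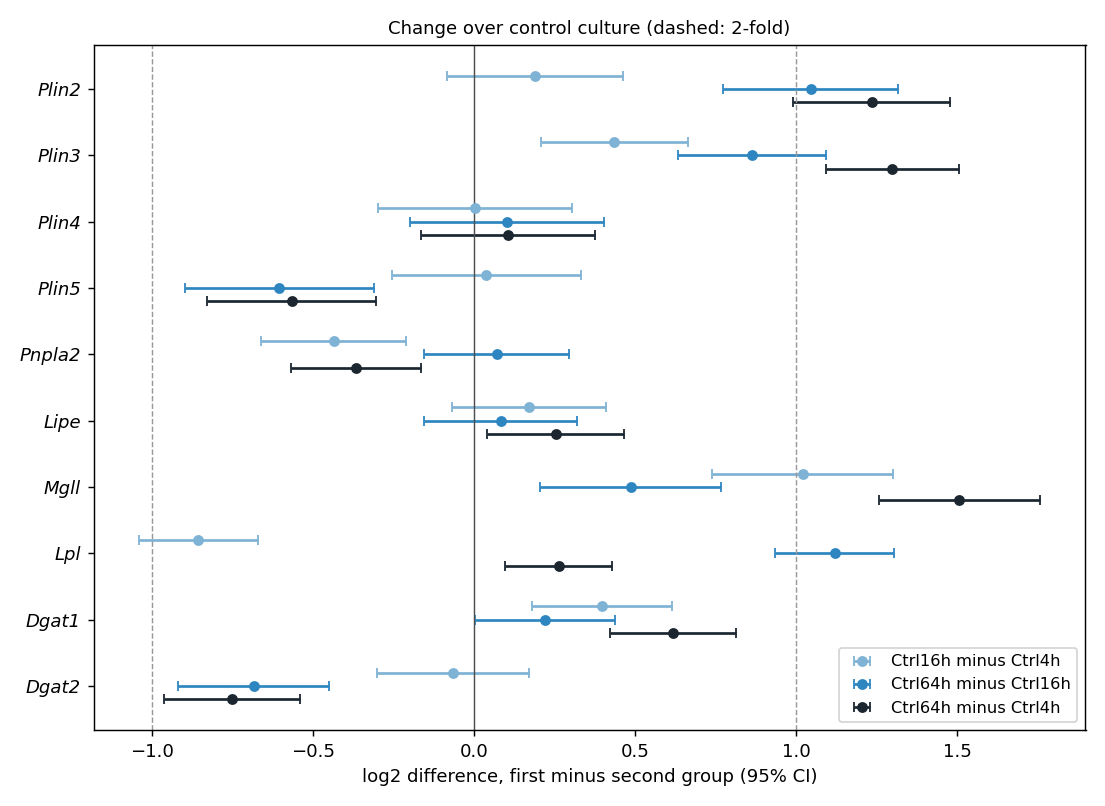
Log2 difference on the x axis, with its 95% confidence interval, for each of the 10 genes over the early step, the late step and the whole control culture. Plin2, Plin3 and Mgll lie to the right of the 2-fold line for Ctrl64h minus Ctrl4h (1.23, 1.30 and 1.51), Lpl has steps of opposite sign (-0.86 and 1.12), and Dgat1 and Dgat2 end on opposite sides of 0 (0.62 and -0.75).

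With VPA, more of the 10 genes were higher than lower, by less than 2-fold, and Mgll was lower at both times. None was called for VPA4h against Ctrl4h, where 0.867% of probe sets were called higher and 0.555% lower, and at an adjusted p under 0.05 of any size 6 were higher and 1 lower (11.5% and 9.96% of all probe sets). For VPA64h against Ctrl64h only Mgll was called, where 1% of probe sets were called higher and 1.14% lower, and at any size 5 were higher and 2 lower (12.8% and 11.2% of all probe sets). The medians of the 10 genes were 0.31 at 4 h and 0.25 at 64 h, against -0.03 and 0.00 over all probe sets. Plin2, Pnpla2, Lipe, Dgat1 and Dgat2 were higher at both times.

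**Figure D3:**
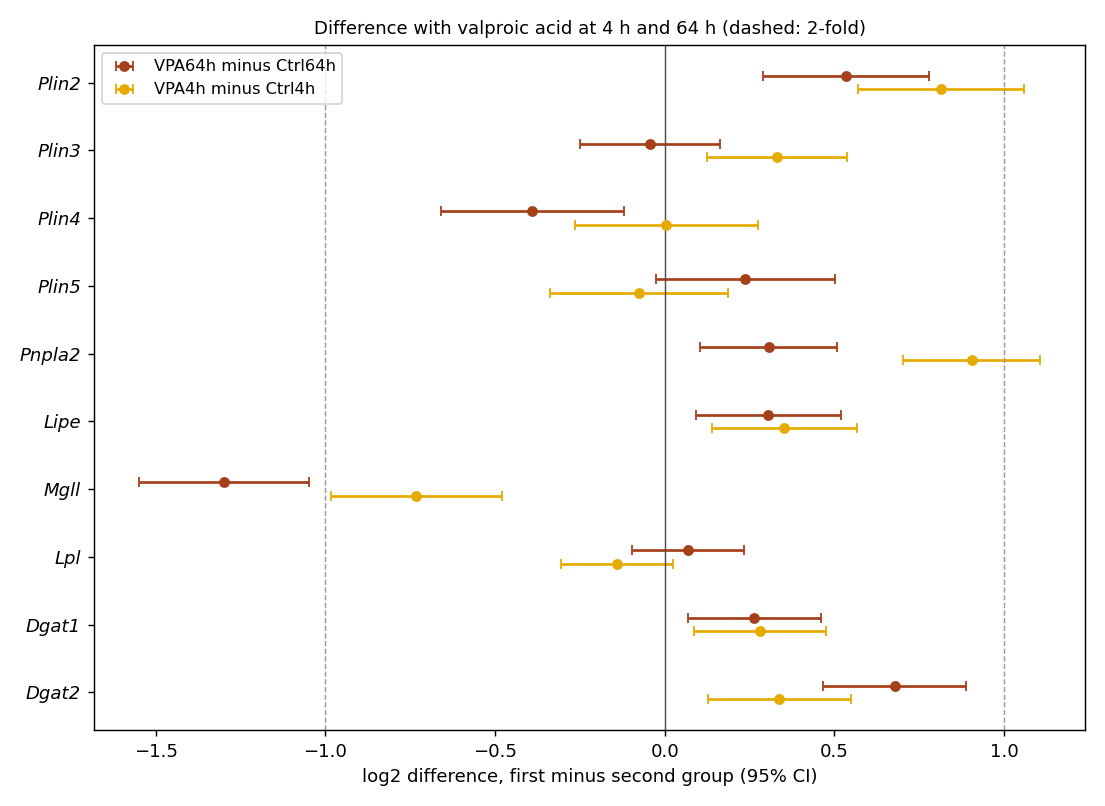
Log2 difference on the x axis, with its 95% confidence interval, between VPA and control cells after 64 h (upper point) and after 4 h (lower point) for each of the 10 genes. Mgll is left of 0 at both times (-1.30 at 64 h and -0.73 at 4 h), Pnpla2 has 0.31 at 64 h and 0.90 at 4 h, and the intervals of Lpl cross 0 at both times.

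Of the coat proteins, Plin2 read 9.91, 10.11 and 9.82 in VPA4h cells, above every Ctrl4h array (mean 9.13 ± 0.14 SD, n = 3). The difference was 0.81 (SE 0.11, adjusted p = 6.43e-05). After 64 h Plin2 read 10.84, 10.76 and 11.10 with VPA, above every Ctrl64h array (10.37 ± 0.14 SD, n = 3), a difference of 0.53 (SE 0.11, adjusted p = 0.00273). Plin2 was thus higher in culture and higher again with VPA, and its order of group means ran from Ctrl4h (lowest, not separated from Ctrl16h, adjusted p = 0.365) through VPA4h and Ctrl64h to VPA64h. Ctrl64h lay above VPA4h by 0.42 (SE 0.11, adjusted p = 0.00549). Plin3 read 8.59, 8.64 and 8.42 in VPA4h, against 8.22 ± 0.16 in Ctrl4h (SD, n = 3), a difference of 0.33 (SE 0.10, adjusted p = 0.0203) that did not pass without Ctrl4h replicate 3, VPA4h replicate 1 or VPA4h replicate 2 (adjusted p = 0.115, 0.0704 and 0.0854). At 64 h Plin3 read 9.49, 9.54 and 9.40 with VPA and overlapped with Ctrl64h (-0.04, 95% interval -0.25 to 0.16). Plin4 read 5.73, 5.92 and 5.62 in VPA64h, lower by 0.39 than the 6.15 ± 0.13 of Ctrl64h (adjusted p = 0.0345), and 4 of 6 settings that leave out an array lost this (highest adjusted p = 0.138). Plin5 passed at neither time (adjusted p = 0.777 at 4 h and 0.193 at 64 h).

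Mgll was the one gene of the 10 with a VPA difference of at least 2-fold. It read 7.31, 7.76 and 7.67 in VPA4h, against 8.31 ± 0.08 in Ctrl4h (SD, n = 3), and 8.39, 8.64 and 8.53 in VPA64h, against 9.82 ± 0.08 in Ctrl64h. The arrays did not overlap at either time. The differences were -0.73 (SE 0.12, adjusted p = 0.000232) at 4 h and -1.30 (SE 0.12, adjusted p = 1.25e-06) at 64 h, the second a 2.46-fold lower level, and it stayed between -1.36 and -1.23 when any of the 6 arrays was left out. Relative to Ctrl4h, Mgll in VPA64h was at 0.21 (95% interval -0.04 to 0.46, adjusted p = 0.142).

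Pnpla2 had the largest VPA difference at 4 h. It read 9.17, 9.19 and 9.01 in VPA4h, the 3 highest of the 14 arrays, against 8.22 ± 0.11 in Ctrl4h (SD, n = 3), and 8.31, 8.12 and 8.04 in VPA64h, against 7.85 ± 0.10 in Ctrl64h. The difference was 0.90 at 4 h (SE 0.10, adjusted p = 4.21e-06) and 0.31 at 64 h (SE 0.10, adjusted p = 0.0271), and the smaller one was lost when Ctrl64h replicate 2 or 3 or VPA64h replicate 1 was left out (adjusted p = 0.0703, 0.104 and 0.129). Lipe read 6.58, 6.56 and 6.28 in VPA4h, against 6.12 ± 0.13 in Ctrl4h, and 6.77, 6.56 and 6.72 in VPA64h, against 6.38 ± 0.09 in Ctrl64h. These differences of 0.35 (adjusted p = 0.0173) and 0.31 (adjusted p = 0.036) each failed in 4 of the 6 settings that leave out 1 array (adjusted p up to 0.0826 at 4 h and up to 0.126 at 64 h). Lpl read 10.91, 10.96 and 10.94 in VPA4h and 11.41, 11.51 and 11.29 in VPA64h. Its differences from control, -0.14 (95% interval -0.31 to 0.03) and 0.07 (95% interval -0.10 to 0.23), did not pass (adjusted p = 0.261 and 0.594).

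Dgat2 read 7.86, 7.97 and 7.82 in VPA4h, against 7.55 ± 0.13 in Ctrl4h (SD, n = 3), and 7.55, 7.58 and 7.28 in VPA64h, against 6.79 ± 0.11 in Ctrl64h. It was higher by 0.34 at 4 h (SE 0.10, adjusted p = 0.0212) and by 0.68 at 64 h (SE 0.10, adjusted p = 0.000125). The 4 h difference was lost without Ctrl4h replicate 3 (adjusted p = 0.109) or VPA4h replicate 2 (adjusted p = 0.0888). At 64 h the level with VPA was within 0.07 of Ctrl4h (95% interval of VPA64h minus Ctrl4h -0.29 to 0.14). Dgat1 read 7.21, 7.15 and 7.39 in VPA4h and 7.77, 7.96 and 7.81 in VPA64h, above every array of its own control at both times. Its differences of 0.28 (adjusted p = 0.0387) and 0.26 (adjusted p = 0.0476) lay near the threshold, and were lost in 4 and 5 of the 6 settings that leave out 1 array (adjusted p up to 0.181 and 0.176). With the replicate number as a block, neither passed (adjusted p = 0.0534 at 4 h and 0.0627 at 64 h).

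Whether the VPA difference changed with time was tested directly, as the difference at 64 h minus that at 4 h. None of the 10 genes changed by 2-fold (0.893% of probe sets were called higher and 1.7% lower), and 2 passed at an adjusted p under 0.05, both negative, where 7.54% of probe sets were positive and 8.33% negative. For Pnpla2 it was -0.60 (SE 0.13, adjusted p = 0.0058), so the VPA difference shrank with time. For Mgll it was -0.57 (SE 0.17, adjusted p = 0.0296), so the difference grew, and this was lost in 7 of 12 settings that leave out 1 array (adjusted p = 0.053 to 0.0835). For the other 8 genes the adjusted p was 0.0782 (Plin3, 0.0383 with the replicate block) or higher.

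For VPA64h against VPA4h none of the 10 genes was called, where 5.26% of probe sets were called higher and 2.29% lower, and Plin2, Mgll, Plin3 and Pnpla2 lay just below 2-fold. Plin2 rose by 0.95, Mgll by 0.94, Plin3 by 0.93 and Dgat1 by 0.60, while Pnpla2 fell by 0.96, with adjusted p from 5.33e-07 to 5.38e-05. At an adjusted p under 0.05, 5 rose and 2 fell, where 23.2% of probe sets rose and 27.1% fell. Set against Ctrl4h, VPA64h cells had called increases of Plin2 (1.77, adjusted p = 3.03e-09) and Plin3 (1.26, adjusted p = 2.23e-08), and none was called lower, where 6.54% of probe sets were called higher and 2.93% lower. Counting changes of any size that passed, 5 were higher and 1 lower (24.6% and 32.4% of probe sets). The others were Dgat1 (0.88), Lipe (0.56) and Lpl (0.33), which were higher, and Plin5, which was lower (-0.33, adjusted p = 0.0328). The comparisons of VPA64h and of Ctrl64h with Ctrl4h share the Ctrl4h arrays.

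The patterns of Mgll and Plin2, which had the widest ranges of group means (2.24 and 1.77), were each set beside 3656 genes that ranged over at least 1. The profiles most like that of Mgll over the 14 arrays were those of Sfxn3 (Pearson r = 0.979), Fblim1 (r = 0.979) and Stn1 (r = 0.978). Those most like that of Plin2 were Tmem9 (r = 0.990), Insig2 (r = 0.989), whose product holds back the processing of SREBP factors, and Tmed4 (r = 0.988). Arrays of a group share their treatment, so these r values describe group means more than single arrays.

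Of 17 lipolysis partners and other lipases, 4 were called higher for Ctrl64h against Ctrl4h and none lower, where 6.68% and 3.71% of all probe sets were, and the median was 0.42, against -0.09 over all probe sets. They included Lipa, the acid lipase of the lysosome (1.57, SE 0.10, adjusted p = 1.61e-09), Nceh1, a neutral cholesteryl ester hydrolase (1.27, adjusted p = 6.55e-07), and G0s2, an inhibitor of Pnpla2 (1.15, SE 0.16, adjusted p = 2.01e-05). Nceh1 averaged 5.42 in Ctrl4h, below the array medians (6.35 to 6.41), and 6.69 in Ctrl64h. With VPA, Lipa read 9.87, 10.02 and 9.74 at 4 h, above 8.68 ± 0.11 in Ctrl4h (SD, n = 3). Lipa was the 1 called gene of the list at 4 h (1.20, adjusted p = 3.15e-07). At that time 0.867% of all probe sets were called higher and 0.555% lower. After 64 h of VPA, 1 gene was called higher and 1 lower, where 1% and 1.14% of all probe sets were. Abhd6, which like Mgll cleaves monoacylglycerols, read 8.15, 8.57 and 8.58 in VPA64h, against 7.24, 6.79 and 7.15 in Ctrl64h (1.37, SE 0.13, adjusted p = 2.54e-06).

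G0s2 read 7.33, 7.61 and 6.99 in VPA64h, against 8.74, 9.12 and 8.67 in Ctrl64h, a difference of -1.53 (SE 0.16, adjusted p = 5.88e-06). At 4 h its VPA difference was -0.05 (adjusted p = 0.897), and the change of the difference between the times was -1.48 (SE 0.23, adjusted p = 0.000373). Abhd5 (CGI-58), the activator of Pnpla2, was chosen after its values were seen. It rose by 0.63 in control culture (SE 0.08, adjusted p = 5.09e-06) and did not pass with VPA at 4 h (-0.16, adjusted p = 0.209) or 64 h (-0.20, adjusted p = 0.0845).

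**Figure D4:**
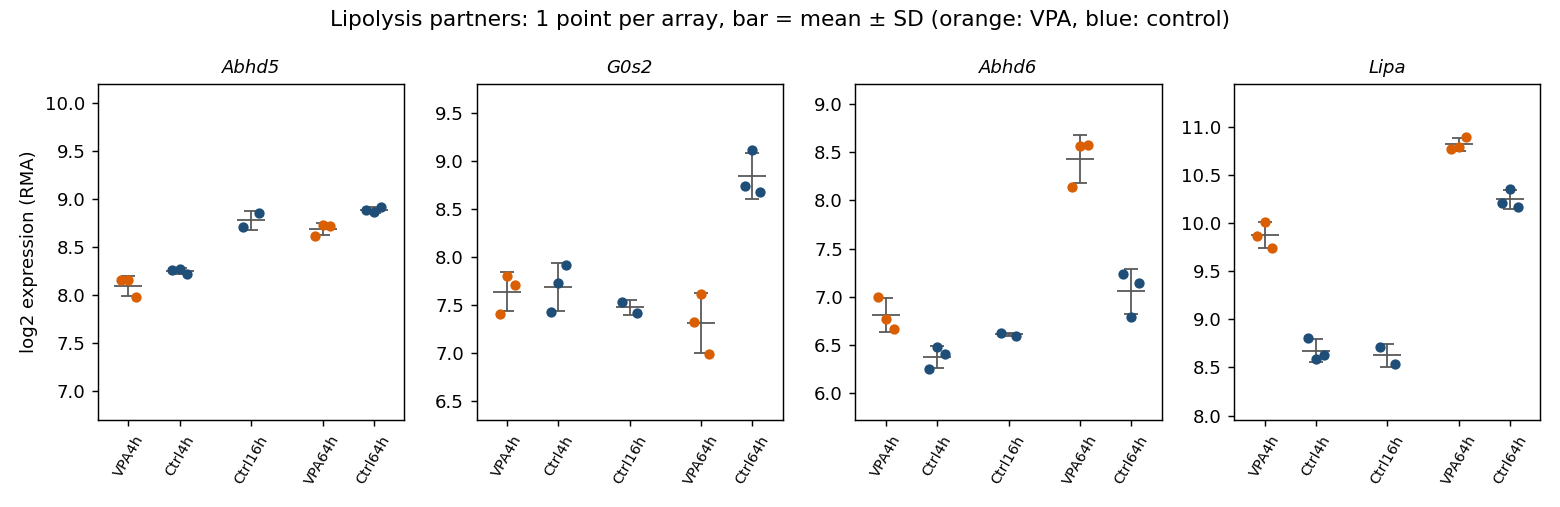
Log2 expression on the y axis, 1 point per array with group mean and SD, of the Pnpla2 activator Abhd5, the Pnpla2 inhibitor G0s2, the monoacylglycerol lipase Abhd6 and the lysosomal lipase Lipa (orange VPA, blue control). G0s2 is highest in Ctrl64h (8.67 to 9.12), Abhd6 is highest in VPA64h (8.15 to 8.58), and Lipa is above its control with VPA at both times.

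Other lists moved less evenly. Of 16 other droplet proteins, 1 was called higher and 1 lower for Ctrl64h against Ctrl4h (median 0.04), where 6.68% and 3.71% of all probe sets were. Bscl2 (seipin), which acts in droplet formation, rose by 1.79 (SE 0.10, adjusted p = 8.59e-10), and Hilpda, known as a Pnpla2 inhibitor, fell by 1.09 (SE 0.12, adjusted p = 1.26e-06). None of this list was called with VPA at 4 h (0.867% of all probe sets higher and 0.555% lower) or 64 h (1% and 1.14%). Upstream of or beside the Dgat enzymes, 18 listed genes of glycerolipid synthesis were measured. The steryl ester enzymes of this list, Soat1 and Soat2, were not analysed, since no probe set names them alone. Plpp1, a lipid phosphate phosphatase, rose by 3.0 in control culture (SE 0.15, adjusted p = 1.99e-10) and Lpin2, a phosphatidic acid phosphatase, fell by 1.5 (adjusted p = 1.28e-09). With VPA the related Plpp3 was lower, with differences of -1.38 at 4 h and -1.42 at 64 h (adjusted p = 1.18e-06 and 1.03e-06). Plpp3 was the 1 called gene of the list at each time, where 0.555% and 1.14% of all probe sets were called lower. At an adjusted p under 0.05 of any size, 2 of the 18 were higher and 5 lower at 4 h (11.5% and 9.96% of all probe sets). At 64 h 4 were higher and 8 lower (12.8% and 11.2%), with a median of -0.18, against 0.00 over all probe sets.

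Around Lpl, 13 genes of the lipoprotein lipase system were measured. For Ctrl64h against Ctrl4h 1 was called higher and 1 lower, where 6.68% and 3.71% of all probe sets were. Apoe fell by 1.75 (adjusted p = 5.32e-09) and Lmf2, a relative of the lipase maturation factor Lmf1, rose by 1.14 (adjusted p = 1.22e-08). For VPA64h against Ctrl64h 1 was again called higher and 1 lower (1% and 1.14% of all probe sets). Apoe was lower by 1.15 (adjusted p = 3.81e-06), and Lipg, endothelial lipase, was higher by 1.01 (adjusted p = 3.41e-05). At an adjusted p under 0.05 of any size 3 were higher and 5 lower (12.8% and 11.2%), with a median of -0.15. Lipg averaged 6.07 in VPA64h and 5.06 in Ctrl64h, both below the array medians (6.37 to 6.40). Of 14 genes of fatty acid uptake and activation, 2 were called higher and 1 lower for Ctrl64h against Ctrl4h, where 6.68% and 3.71% of all probe sets were. Dbi, an acyl-CoA binding protein, rose by 2.07 (adjusted p = 4.27e-11), and Acsl4, an acyl-CoA synthetase for arachidonate, fell by 1.70 (adjusted p = 2.33e-10). None was called with VPA at 4 h (0.867% of all probe sets higher and 0.555% lower) or 64 h (1% and 1.14%).

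The genes of mitochondrial fatty acid oxidation rose over control culture. Of 15 measured, 15 rose for Ctrl64h against Ctrl4h at an adjusted p under 0.05 and 9 were called, where 25% of all probe sets rose and 6.68% were called higher, and their median was 1.30, against -0.09 over all probe sets. Acaa2 (2.34, SE 0.11), Hadh (2.13, SE 0.09) and Decr1 (1.93, SE 0.10), which act in or feed the beta-oxidation spiral, had the largest increases (adjusted p = 1.06e-10, 3.38e-11 and 2.02e-10). With VPA, 9 of the 15 were higher at 4 h and none lower (11.5% and 9.96% of all probe sets), and 7 were higher and 3 lower at 64 h (12.8% and 11.2%). Cpt1a, which admits long-chain fatty acids to the mitochondrion, was the 1 gene called, higher by 1.75 in VPA4h than in Ctrl4h (SE 0.09, adjusted p = 1.07e-08). In that comparison 0.867% of all probe sets were called higher.

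Of 17 measured regulators, 1 was called lower and none higher for Ctrl64h against Ctrl4h, where 3.71% and 6.68% of all probe sets were. The called gene was Cebpb, a transcription factor of fat cell formation (-1.75, SE 0.12, adjusted p = 8.49e-09). Foxo1, which is known to raise Pnpla2 transcription in fat cells, was higher by 1.16 in VPA4h than in Ctrl4h (SE 0.10, adjusted p = 5.52e-07), and Nr1h3 (LXR alpha) was lower by 1.01 in VPA64h than in Ctrl64h (SE 0.12, adjusted p = 1.6e-05). Pparg, chosen after its values were seen, averaged 5.50 to 5.74 in the 5 groups and passed none of the comparisons (adjusted p = 0.209 for VPA64h against Ctrl64h). These means lay below the array medians (6.34 to 6.41), where a change may be missed. Of 8 measured adipocyte markers, 5 fell and none rose for Ctrl64h against Ctrl4h (31.6% and 25% of all probe sets). For Ctrl64h against Ctrl16h 1 fell and 1 rose (23.9% and 19.2%). The latter was Fabp4 (1.06, adjusted p = 5.72e-05), which averaged 5.82, 5.07 and 6.13 at 4, 16 and 64 h. None of the 8 passed with VPA at 4 h (11.5% of all probe sets higher and 9.96% lower) or 64 h (12.8% and 11.2%). Adipoq averaged 4.17 to 4.51 in the 5 groups. Over the time in which Plin2, Plin3 and Mgll rose, 6 of 12 hepatocyte markers were lower and none higher (Ctrl64h against Ctrl4h), where 31.6% of all probe sets were lower. The mean of the 12 was 5.20 to 5.67 in Ctrl64h arrays and 5.60 to 6.16 in Ctrl4h arrays, and Alb averaged 7.28 in Ctrl64h and 8.31 in Ctrl4h (-1.03, SE 0.43, adjusted p = 0.0492). Between VPA and control cells no hepatocyte marker passed at 4 h (11.5% of all probe sets higher and 9.96% lower) or 64 h (12.8% and 11.2%). The part of hepatocyte RNA in the time course was not tested. Of 12 sinusoidal endothelial markers, 4 were lower and none higher for VPA64h against Ctrl64h (median -0.25), where 11.2% of probe sets were lower, and their mean was 5.56 to 5.64 in VPA64h arrays and 5.71 to 6.03 in Ctrl64h arrays. In the same comparison 2 of 12 macrophage markers were lower and none higher (11.2% and 12.8% of all probe sets). Their mean was 5.52 to 5.81 in VPA64h arrays and 5.66 to 5.93 in Ctrl64h arrays. For VPA4h against Ctrl4h, 1 endothelial marker was higher and no macrophage marker passed, where 11.5% of all probe sets were higher and 9.96% lower. The part of these cells in the VPA differences at 64 h, that of Lipg included, was not tested.

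**Figure D5:**
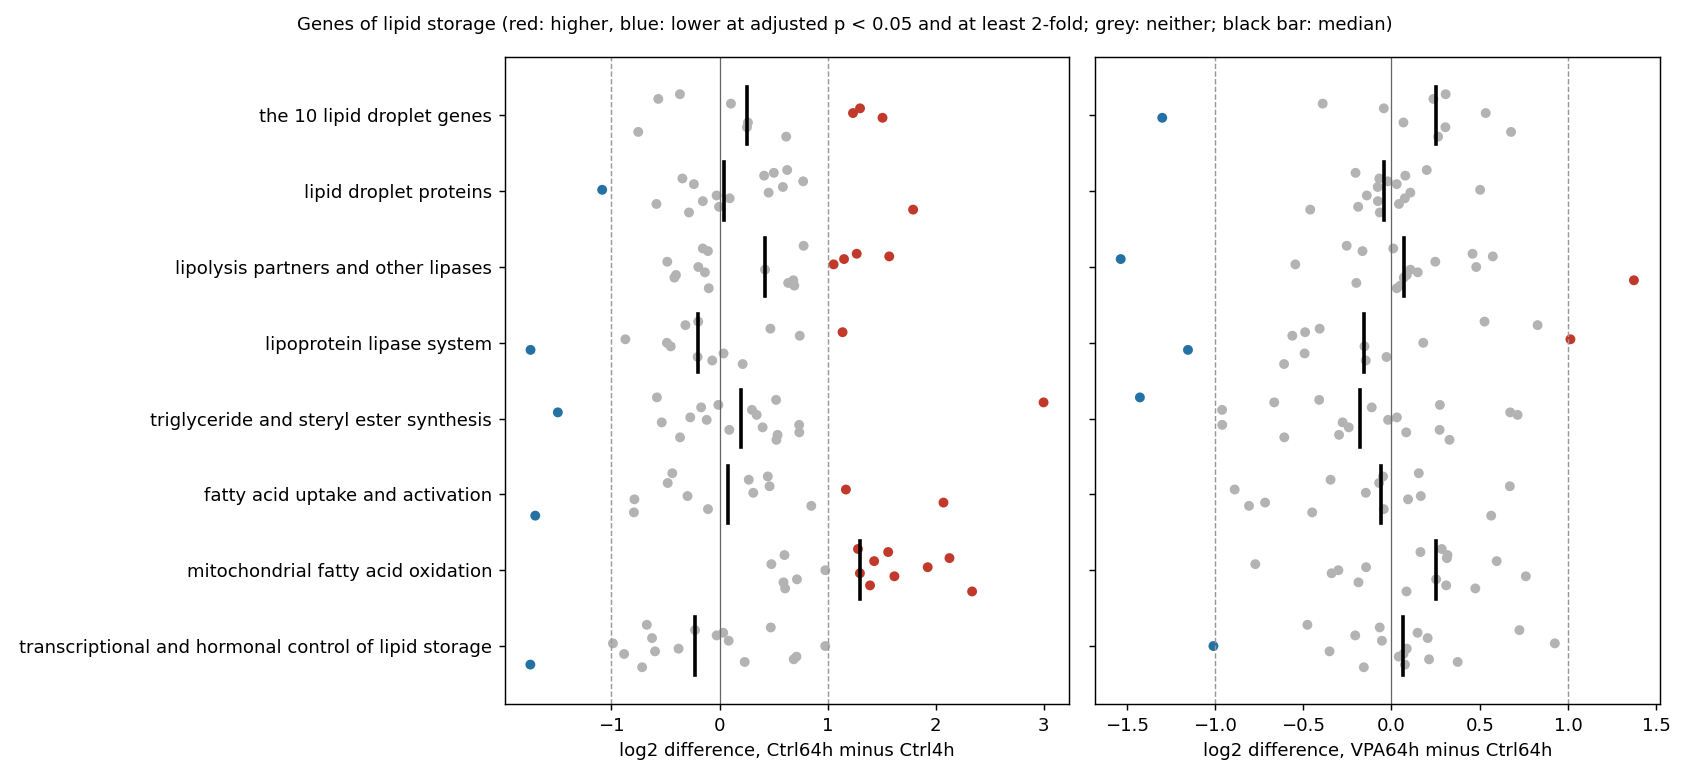
Log2 difference on the x axis for the 10 lipid droplet genes and 7 other lists of lipid genes, for Ctrl64h minus Ctrl4h (left) and VPA64h minus Ctrl64h (right), with 1 point per gene and a bar at the median of each list. In control culture the oxidation genes have a median of 1.30 and the 10 droplet genes of 0.26, and with VPA at 64 h the medians are 0.25 for both.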

How the data were processed

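RNA of 14 HSC cultures was hybridised to Affymetrix Mouse Gene 1.0 ST arrays. The authors deposited log2 expression values made by RMA (background correction, quantile normalisation, probe summary). The methods name GeneSpring GX for this step and the submitters' processing notes Affymetrix Expression Console, and settings are not given in the sources used here. The values were used as deposited. Of 35557 probe sets, the 23410 with at least 1 symbol were tested with limma (version 3.58.1, R 4.3.3; lmFit and eBayes, 9 residual and 6.52 prior degrees of freedom), two-sided, in 8 comparisons. The probe set of highest mean stood for a gene. Called means an adjusted p under 0.05 and at least 2-fold, the limits of the study's methods. The fit was tested on simulated data. The 10 genes and all lists were chosen with earlier results of these data known. Named were the 10 genes, up to 3 called genes of largest change per list and comparison, and 3 genes of most similar profile for 2 members. Arrays give no counts, so their number limits the precision, and an exact test of 3 against 3 cannot go below p = 0.1. Same-numbered arrays deviated together (every correlation over 0.1) between VPA4h and Ctrl4h (0.14 to 0.28), VPA64h and Ctrl64h (0.16 to 0.17) and VPA64h and Ctrl4h (0.11 to 0.18), a pairing that comes from the data, since no label says what a number shares. Each comparison was also run under 12 kinds of alternative setting. Of the listed genes 18 were not analysed here, since no probe set names them alone.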

Additional observations from a re-analysis of the deposited data

Results flagged for a closer look

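For 2 genes the VPA difference itself changed between the times, by limma's test of that change. Pnpla2 had a VPA difference of 0.31 at 64 h and 0.90 at 4 h, a change of -0.60 (SE 0.13, adjusted p = 0.0058), and it passed in all 12 settings that leave out 1 array (adjusted p = 0.00335 to 0.018). Mgll had -1.30 at 64 h and -0.73 at 4 h, a change of -0.57 (SE 0.17, adjusted p = 0.0296). It did not pass in 7 of those 12 settings, nor without moderation of the variances (adjusted p = 0.074) or with all probe sets tested (adjusted p = 0.0684).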

How the results depend on the processing

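Directions of the called changes held in every alternative run. With no 2-fold limit, 5 of the 10 genes had an adjusted p under 0.05 for Ctrl16h against Ctrl4h (12.8% of all probe sets higher and 7.32% lower). There were 6 for Ctrl64h against Ctrl16h (19.2% and 23.9%) and 9 for Ctrl64h against Ctrl4h (25% and 31.6%). With VPA there were 7 for VPA4h against Ctrl4h (11.5% and 9.96%) and 7 for VPA64h against Ctrl64h (12.8% and 11.2%). The count was 7 for VPA64h against VPA4h (23.2% and 27.1%) and 6 for VPA64h against Ctrl4h (24.6% and 32.4%). It was 2 for the change of the VPA difference (7.54% and 8.33%). Centring each array on housekeeping genes, which shifts all genes by -0.13 for Ctrl16h against Ctrl4h and by at most 0.08 elsewhere, left 0 called for Ctrl16h against Ctrl4h and gave 1 for VPA64h against VPA4h. Leaving out 1 array gave 0 to 1 called for Ctrl16h against Ctrl4h, 1 to 2 for Ctrl64h against Ctrl16h and 0 to 2 for VPA64h against VPA4h.

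Values that changed sign were near 0. For Plin4, Ctrl16h against Ctrl4h, the value was -0.043 with the replicate block, -0.015 with array weights, -0.010 with median-centred arrays and -0.13 with housekeeping centring. Housekeeping centring also gave -0.094 for Plin5 in that comparison, 0.0049 for Plin5 in VPA4h against Ctrl4h and 0.033 for Plin3 in VPA64h against Ctrl64h. Leaving out 1 array gave -0.17 to 0.17 for Plin4 and -0.11 to 0.19 for Plin5 (Ctrl16h against Ctrl4h), -0.068 to 0.27 for Plin4 (Ctrl64h against Ctrl16h), -0.081 to 0.14 for Plin4 and -0.15 to 0.0089 for Plin5 (VPA4h against Ctrl4h), -0.079 to 0.004 for Plin3 (VPA64h against Ctrl64h), -0.14 to 0.0046 for Pnpla2 and -0.15 to 0.022 for Dgat2 (VPA64h against Ctrl4h), and -0.14 to 0.015 for Lipe and -0.077 to 0.054 for Dgat1 (change of the VPA difference). Of the other values under single settings, 27 fell short of the limits and 8 newly reached them, and with 1 array left out 54 and 8 did.

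Besides the blocked values given with the results (Dgat1 at both times of VPA and Plin3 for the change of the VPA difference), the replicate block changed no call of the 10 genes. Same-numbered arrays of the other groups did not all deviate together (of all 26 pairs 13 were over 0.1, range -0.24 to 0.28). The number of arrays limits all of these values, most of all at 16 h with 2.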
